A study of Mus musculus with 2 samples.

Results

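The p53 target genes described here are 10 mouse genes, Cdkn1a, Mdm2, Ccng1, Bax, Eda2r, Trp53inp1, Phlda3, Zmat3, Btg2 and Perp, taken by name from the 17646 genes listed in the gene tables of the series. All 10 were listed and all 10 had an level of at least 1 RPKM (reads per kilobase of gene length and per M uniquely mapped reads) in at least one library, so none was lost to the filter on low values. The study sequenced RNA of whole embryonic hearts at embryonic day 13.5, from mice of a BALB/c background, with 1 library from WT hearts and 1 from hearts with the SRSF10-/- genotype. Srsf10 is an SR protein that regulates splicing, and the comparison asks which transcripts differ in level when it is lost. The labels give neither the number nor the sex of the embryos behind a library. As each genotype has a single library, differences have no replicate check and none was tested; higher or lower refers to these 2 libraries.

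The transcription factor p53, encoded by Trp53, is held at a low level in unstressed cells by Mdm2, a ubiquitin ligase that marks it for degradation, and by Mdm4, a relative of Mdm2 that blocks its activity. DNA damage, disturbed ribosome production and faulty RNA processing can free p53, which then binds paired elements in DNA and raises transcription of genes that stop the cell cycle, promote cell death or feed back on p53 itself. In the mouse embryo this restraint is needed for survival, because embryos without Mdm2 or Mdm4 die unless Trp53 is also lost.

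Among the 10 genes, Cdkn1a and Ccng1 have a match to the p53 consensus response element in the bases just upstream of an annotated start. Both matching stretches that were found are shown. Both genes were higher in the knockout library, and whether the match bears on that was not tested. The RefSeq promoter table (GRCm38.p6, not the mm9 build of the deposited data) had 8 windows for 7 of the 10 genes. The 250 bases before each start were searched for the p53 consensus element of 20 bases without a spacer, allowing at most 2 mismatches and keeping the central C and G of both copies. The consensus reads the same on both strands. The Cdkn1a window lies on the + strand at chr17:29090729-29090978, upstream of the more distal of its 2 listed starts. The Ccng1 window lies on the - strand at chr11:40755287-40755536. Capitals mark the match, and each match has 1 mismatch.
Cdkn1a: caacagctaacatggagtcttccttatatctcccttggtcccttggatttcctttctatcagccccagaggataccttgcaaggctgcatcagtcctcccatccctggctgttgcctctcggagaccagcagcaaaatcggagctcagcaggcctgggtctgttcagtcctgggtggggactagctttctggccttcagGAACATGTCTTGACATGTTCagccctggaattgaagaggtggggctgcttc
Ccng1: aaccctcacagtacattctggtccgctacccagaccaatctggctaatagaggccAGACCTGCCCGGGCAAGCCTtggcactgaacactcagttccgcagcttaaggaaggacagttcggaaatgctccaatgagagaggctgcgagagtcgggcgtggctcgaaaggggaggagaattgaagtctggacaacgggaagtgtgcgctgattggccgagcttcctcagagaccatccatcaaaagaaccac
The match lies 51 to 32 bases before the start in Cdkn1a and 195 to 176 bases before it in Ccng1. Of all 32851 windows in the table, 89 (0.271%) held such a match, and 19 (0.0578%) held one with at most 1 mismatch. The other windows, those of Bax, Btg2, Eda2r, Mdm2, Phlda3 and the second start of Cdkn1a, held none, which says only that these letters are not in those 250 bases. Zmat3, Trp53inp1 and Perp are named only.

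Depth was 39.61 M uniquely mapped reads for wild type and 38.89 M for knockout. Srsf10 itself went from 35.3 RPKM in the wild type to 1.45 RPKM in the knockout, in the direction its labels give. All 8 cardiomyocyte markers examined were present in both libraries, with summed levels of 9636 RPKM in wild type and 8424 RPKM in knockout. Tnnt2 was the most abundant by summed level of both, at 2940 and 2305 RPKM, and Nppa was the 1 marker past 1.5-fold, at 1168 and 747 RPKM. The 4 Y-linked genes examined (Ddx3y, Eif2s3y, Kdm5d and Uty) had 2943 wild-type and 7 knockout reads, so that sex and genotype cannot be told apart in any value below. In whole hearts, fewer cells of a type and less RNA per cell cannot be told apart either.

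The 10 p53 targets did not share a direction. A ratio is given as knockout over wild type in reads per library read, with an exact conditional binomial (Clopper-Pearson) 95% interval that covers counting error only. The interval lay above 1 for 5 genes (Eda2r, Ccng1, Cdkn1a, Mdm2 and Trp53inp1) and below 1 for 3 (Perp, Bax and Btg2), and it held 1 for Zmat3 and Phlda3. By a rule of size of at least 1.5-fold, 1 of the 10 genes, Eda2r, was higher, against 3.54% of the 12329 genes that reached 1 RPKM in either library (the genes tested), and 0 were lower, against 3.01%. At least 1.2-fold, 3 of the 10 were higher and 2 lower, against 13.8% and 13.5% of the same genes. The median log2 ratio of the 10 genes was 0.13, and that of all 12329 genes was -0.01.

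**Figure D1:**
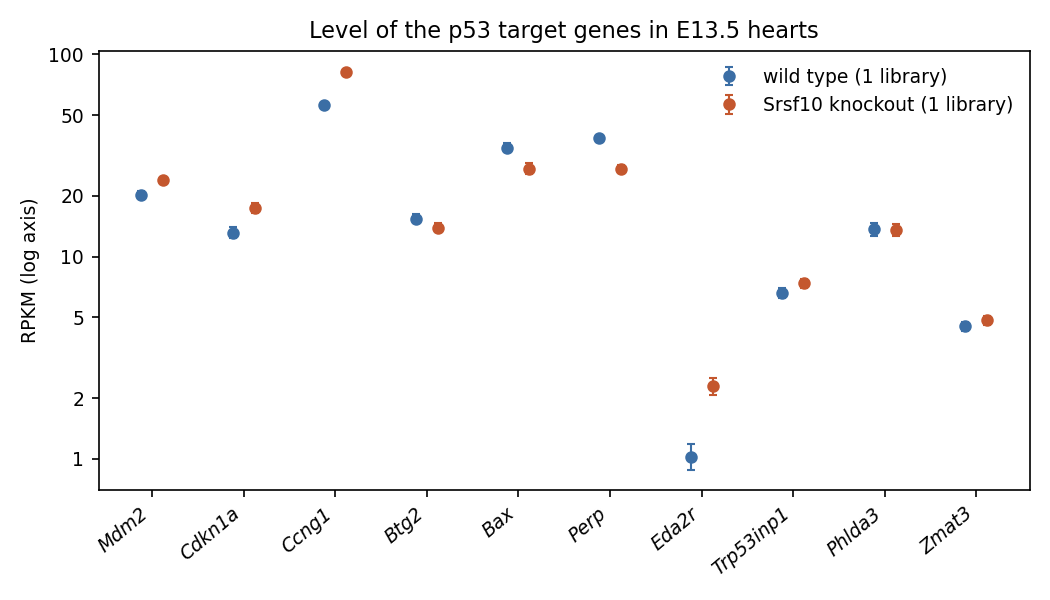
Level of each p53 target gene in RPKM on a log axis, with 1 point per library (wild type and Srsf10 knockout) and bars giving the exact Poisson 95% interval of the read count, for counting error only. Eda2r goes from 1.03 to 2.29 RPKM and Ccng1 from 55.9 to 81.3 RPKM, while Bax and Perp are lower in the knockout library.

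In level per length, the genes spanned from Ccng1 at 55.9 RPKM to Eda2r at 1.03 RPKM in the wild-type heart. The wild-type order of level was Ccng1, Perp, Bax, Mdm2, Btg2, Phlda3, Cdkn1a, Trp53inp1, Zmat3 and Eda2r. In that order only the neighbours Phlda3 and Cdkn1a had overlapping counting intervals. In the knockout heart Cdkn1a passed Btg2 and Phlda3 to take rank 5, and Bax and Perp lay level at 27.2 and 27.0 RPKM. Ccng1 alone gave 36.9% of all reads of the 10 genes in wild type and 46.1% in knockout. Summed over the 10 genes, reads were 1.17-fold higher in the knockout library (1.14 to 1.19). Summed RPKM levels differed less, at 203 in wild type and 219 in knockout, a ratio of 1.08. Without Ccng1 the ratio of summed reads was 0.996 (0.972 to 1.02).

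Mdm2, the feedback inhibitor of p53, was slightly higher in the knockout library. It had 2503 wild-type reads (20.2 RPKM) and 2899 knockout reads (23.8 RPKM), a ratio of 1.18 (1.12 to 1.25). Trp53 itself was at a like level in both, with 4672 reads (36.0 RPKM) and 4440 reads (34.9 RPKM) and a ratio of 0.968 (0.929 to 1.01). Mdm2 per Trp53, as a quotient of RPKM levels within a library, was 0.560 in wild type and 0.683 in knockout. Mdm4, the relative and partner of Mdm2, differed more than Mdm2 did. It had 1454 wild-type reads (10.5 RPKM) and 2381 knockout reads (17.5 RPKM), a ratio of 1.67 (1.56 to 1.78), and 283 of the 12329 genes had a larger ratio. The quotient of Mdm2 over Mdm4 levels accordingly went from 1.92 to 1.36. The Mdm4 value is less certain than the others, because 27.6% of the 31-base words of its longest transcript also occur in another annotated gene, mainly the pseudogene Mdm4-ps. Each value is the total of a gene, over all its splice forms.

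Ccng1 and Cdkn1a were both higher in the knockout library. Ccng1 encodes cyclin G1, which recruits a phosphatase to Mdm2. It had 7774 wild-type reads (55.9 RPKM) and 11098 knockout reads (81.3 RPKM), a ratio of 1.45 (1.41 to 1.497), just under the 1.5-fold rule. Of the 12329 genes, 514 had a larger ratio. Cdkn1a encodes p21, the inhibitor of cyclin-dependent kinases through which p53 halts the cell cycle. It had 993 wild-type reads (13.1 RPKM) and 1287 knockout reads (17.3 RPKM), a ratio of 1.32 (1.21 to 1.44), with 894 genes above it. In the GRCm38 annotation 7.68% of the exonic length of Cdkn1a overlaps an antisense gene, whose reads cannot be told apart since the use of strand is not given. Btg2, an antiproliferative protein that recruits the mRNA deadenylase complex, lay in the other direction. It had 1673 wild-type reads (15.4 RPKM) and 1480 knockout reads (13.9 RPKM), 1.11-fold lower (1.03 to 1.19).

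**Figure D2:**
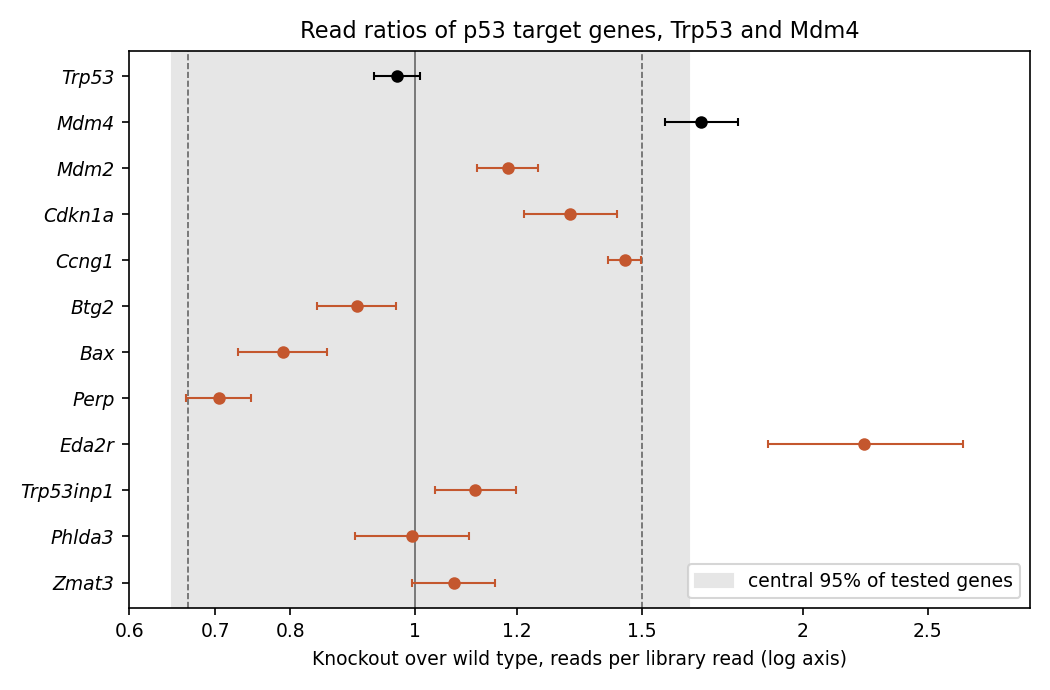
Ratio of reads per library read, knockout over wild type, on a log axis for the 10 p53 target genes (orange) and for Trp53 and Mdm4 (black), with exact 95% counting intervals. The grey band holds the central 95% of the 12329 tested genes (0.647 to 1.63) and the dashed lines mark 1.5-fold; Eda2r and Mdm4 lie outside the band, and the other genes lie inside it.

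The relatives of Ccng1, Cdkn1a and Btg2 were given by name from a fixed list of family members. Ccng2, the other G-type cyclin, had a ratio of 1.05 (0.987 to 1.12). The p21 relatives Cdkn1b (p27) and Cdkn1c (p57) had ratios of 0.850 (0.805 to 0.898) and 0.962 (0.946 to 0.980). Cdkn1c was the most abundant gene of the family list, at 331 RPKM in wild type and 319 RPKM in knockout, against 13.1 and 17.3 RPKM for Cdkn1a. Btg1, the closest relative of Btg2, was 1.31-fold lower (1.25 to 1.37), a larger difference in the same direction as Btg2. Btg3 had a ratio of 1.14 with a wide interval (0.897 to 1.44). Of the 22 genes in the family list 19 were at RPKM 1 or more, and 1 of them, Mdm4, was past 1.5-fold. By that rule 3.54% of all genes tested were higher and 3.01% lower.

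Bax and Perp, which act in cell death, were both lower in the knockout library. Bax, which permeabilises the outer mitochondrial membrane, had 1432 wild-type reads (34.5 RPKM) and 1110 knockout reads (27.2 RPKM), 1.27-fold lower (1.17 to 1.37). In the annotation 12.2% of its exonic length overlaps another gene, Gm45808, on the same strand. Perp, a small membrane protein that promotes apoptosis and also serves desmosomes, had 2890 reads (38.4 RPKM) and 1997 reads (27.0 RPKM), 1.42-fold lower (1.34 to 1.505). Only 497 of the 12329 genes had a smaller ratio than Perp. Perp is also a target of the p53 relative p63 in epithelium, and Trp63, picked after its values were seen, had 18 reads in each library. The desmosome gene Dsp, the most abundant of the epithelial markers, went from 73.8 to 80.8 RPKM. Relatives of Perp in the PMP22 family had ratios from 0.871 (Emp1) to 1.10 (Pmp22).

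Bax has antagonists and partners in the mitochondrial pathway of apoptosis. Those at RPKM 1 or more stayed within 1.5-fold, as did most genes tested, of which 3.54% were higher and 3.01% lower. Of 22 genes in that list 20 were at RPKM 1 or more, 7 had a ratio above 1 and 13 below 1, and the median log2 ratio was -0.06. At least 1.2-fold, 1 was higher and 3 were lower, against 13.8% and 13.5% of all genes tested. Cycs (cytochrome c), the most abundant, went from 51.8 to 44.6 RPKM, and 31.8% of its words occur in other genes too. The other effectors of the Bax type, Bak1 and Bok, had ratios of 0.993 (0.936 to 1.05) and 0.733 (0.658 to 0.817). Bcl2l1, which encodes the survival protein Bcl-xL and was picked here after its values were seen, went from 15.8 to 16.3 RPKM. The quotient of Bax over Bcl2l1 levels was 2.18 in wild type and 1.67 in knockout.

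Eda2r had the largest ratio of the 10 genes and the lowest level. It is an X-linked member of the TNF receptor family and binds the A2 form of ectodysplasin. It had 193 wild-type reads (1.03 RPKM) and 423 knockout reads (2.29 RPKM), a ratio of 2.23 (1.88 to 2.66), and 84 of the 12329 genes had a larger one. Genes at such levels differ more often: of the 3337 genes with a mean RPKM of 1 to under 5, 8.27% were at least 1.5-fold higher and 2.22% at least 2-fold higher. With 1 RPKM added to both levels the log2 ratio of Eda2r was 0.70 in place of 1.16. Its ligand gene Eda went from 2.18 to 2.01 RPKM, with a ratio of 0.924 (0.805 to 1.06). The related receptor Edar had 18 and 2 reads, and the adaptor genes Traf3 and Traf6 had ratios of 0.933 and 1.04. The median log2 ratio was 0.01 over 420 X-linked genes and -0.01 over 11741 autosomal genes. Such medians do not speak to a single gene, and for Eda2r sex and genotype cannot be told apart.

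**Figure D3:**
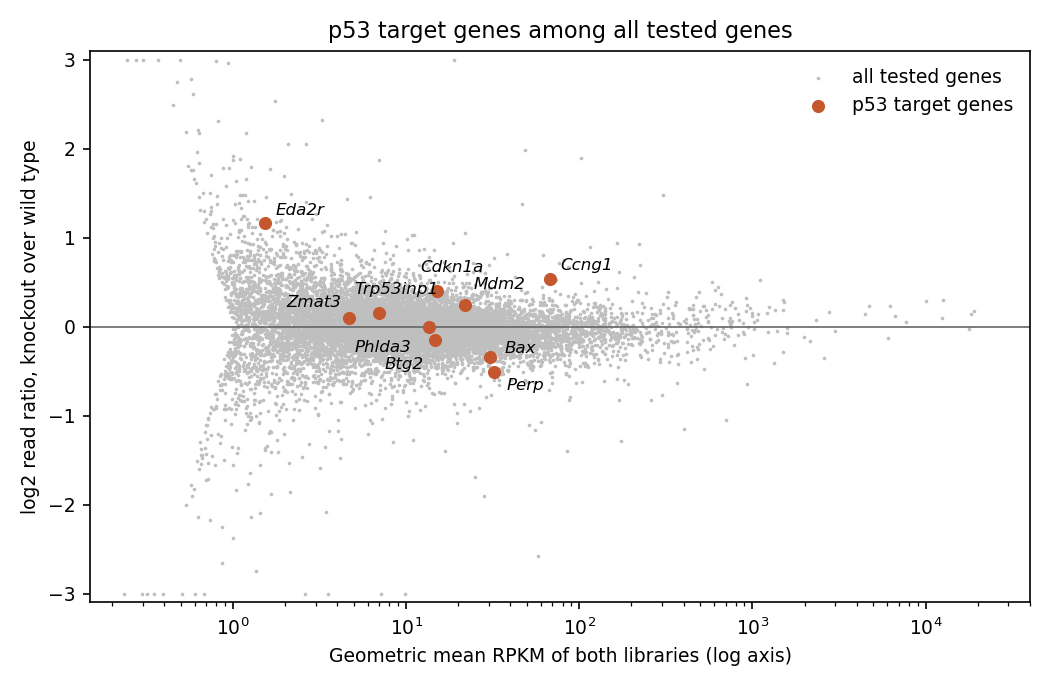
Log2 read ratio (knockout over wild type) against the geometric mean RPKM of both libraries on a log axis, for the 12329 tested genes (grey) and the 10 p53 target genes (orange). Ratios beyond 3 in size are drawn at the edge, levels under 0.05 RPKM are drawn as 0.05, and ratios against 0 reads use a floor of 3 reads; Eda2r lies where grey points spread widely, and Ccng1 near the upper edge of genes at its level.

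The remaining targets differed little. Trp53inp1, a nuclear protein that enhances p53 activity and takes part in autophagy, had 1422 wild-type reads (6.61 RPKM) and 1555 knockout reads (7.36 RPKM), a ratio of 1.11 (1.04 to 1.198). It lies on chromosome 4, as Srsf10 does. Its relative Trp53inp2 was far more abundant and 1.23-fold lower (1.19 to 1.27), at 59.9 and 48.7 RPKM. Zmat3, a zinc finger protein that binds RNA, had 1397 reads (4.53 RPKM) and 1470 reads (4.85 RPKM), a ratio of 1.07 (0.996 to 1.15). Its relatives Zmat1 and Zmat2 had ratios of 0.982 (0.892 to 1.08) and 1.04 (0.982 to 1.09). Phlda3, a pleckstrin homology protein that restrains Akt at membranes, had 774 reads (13.6 RPKM) and 756 reads (13.5 RPKM), a ratio of 0.995 (0.899 to 1.10). The direction of Phlda3 turned under 3 of the 4 other scalings of the libraries. Its relative Phlda1 had a ratio of 1.01 (0.904 to 1.12).

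The deposited coverage score, read as the share of the listed gene length covered by reads, was also similar in the libraries for all 10 genes. It was 87.4% in wild type and 87.6% in knockout for Eda2r, 99.3% and 98.7% for Ccng1, and 97.7% and 99.1% for Mdm2. Zmat3 had the largest difference of the 10 genes, from 94.9% to 97.4%, that is 2.44 percentage points. Over the 11722 genes with at least 100 reads in both libraries, the central 95% of differences ran from -10.0 to 10.2 percentage points.

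Other known p53 targets showed no common shift. Of 44 further targets fixed in a list 39 were at RPKM 1 or more, 20 of them with a ratio above 1 and 19 below 1, and the median log2 ratio was 0.00. By the 1.5-fold rule 0 were higher and 1 was lower, against the 3.54% and 3.01% of all genes given above. At least 1.2-fold, 8 were higher and 7 lower, against 13.8% and 13.5% of all genes. Igfbp3, a secreted binding protein of insulin-like growth factors, was the 1 lower gene, going from 27.4 to 13.97 RPKM, 1.96-fold lower (1.84 to 2.10). Sulf2, a heparan sulfate 6-O-endosulfatase and the most abundant of the list, went from 78.0 to 62.6 RPKM, 1.25-fold lower (1.22 to 1.28). Picked after their values were seen, the death receptor Fas had a ratio of 1.45 at only 50 and 71 reads (0.993 to 2.12), and the stress cytokine Gdf15, below the filter, 23 and 46 reads, a ratio of 2.04 (1.21 to 3.52). Of the further targets 36 had a promoter window, and 2 held a match to the p53 element. Ckap2, a spindle protein, had a ratio of 0.973 (0.912 to 1.04), and Trp73, the p53 relative p73, had 4 reads in each library.

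**Figure D4:**
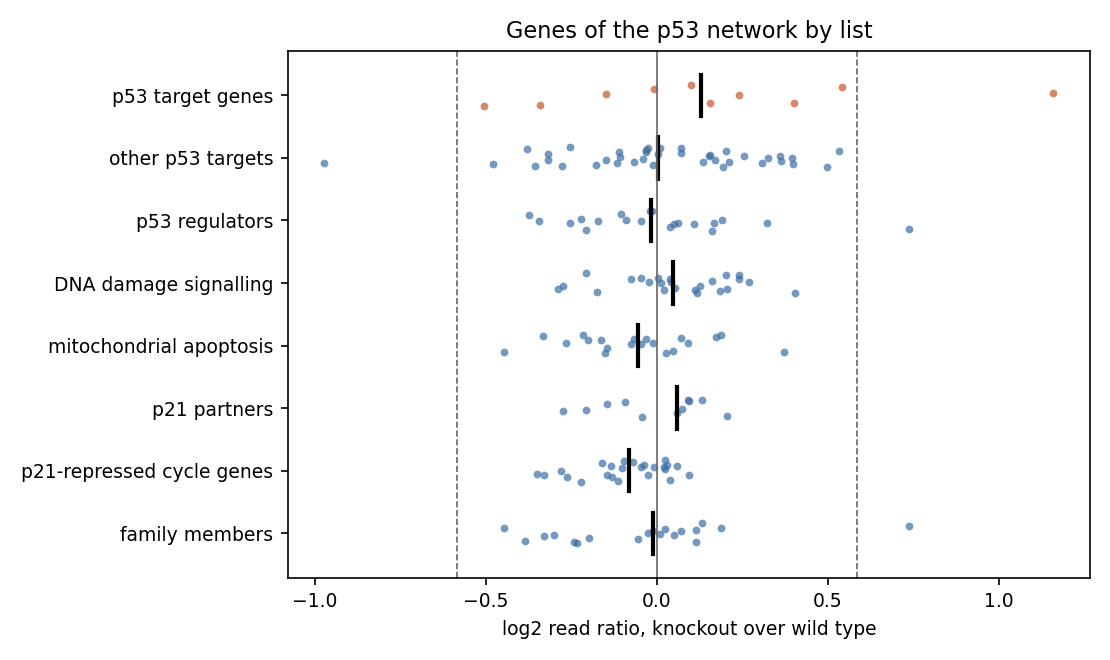
Log2 read ratio (knockout over wild type) of every gene at RPKM 1 or more in one library, 1 point per gene, for the p53 target genes (orange) and 7 fixed lists (blue); black bars are medians and dashed lines mark 1.5-fold. The p53 targets spread from -0.51 (Perp) to 1.16 (Eda2r), and the other lists have medians from -0.08 to 0.06.

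Across all genes with a match to the p53 element in the 250 bases upstream of a listed start, 34 were at RPKM 1 or more. Their median log2 ratio was -0.03, against -0.01 for the 9589 such genes with any window. Past 1.5-fold, 0 of the 34 were higher and 0 lower, against 3.54% and 3.01% of all genes tested. At least 1.2-fold, 2 were higher and 2 lower, and the 2 higher genes were Ccng1 and Cdkn1a. For comparison 13.3% of the 9589 genes were at least 1.2-fold higher.

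Genes upstream of p53 were close in level between the libraries. Of 21 regulators 20 were at RPKM 1 or more, 9 with a ratio above 1 and 11 below 1, with a median log2 ratio of -0.02, and Mdm4 was the only one past 1.5-fold. Rpl11, a ribosomal protein that binds Mdm2, was the most abundant at 146 and 158 RPKM, and 39.6% of its words occur in other genes too. Of 24 genes of DNA damage signalling all were at RPKM 1 or more, 17 with a ratio above 1 and 7 below 1. Their median was 0.05, and 0 were past 1.5-fold. Of all genes tested, 3.54% were higher and 3.01% lower by the rule used for both lists. H2afx, the histone variant that marks broken DNA, was the most abundant at 88.8 and 92.2 RPKM. Atm, the kinase that signals breaks to p53, was picked after its values were seen and had the largest ratio of that list, 1.32 (1.22 to 1.44), at 2.66 and 3.52 RPKM.

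Like most genes tested, those that p21 acts on differed by less than 1.5-fold. By that rule 3.54% of all genes tested were higher and 3.01% lower. Of the 11 cyclins, kinases and other partners of p21, 6 had a ratio above 1 and 5 below 1, and the median log2 ratio was 0.06. Cdk4, the most abundant, went from 206 to 193 RPKM. The 24 cell cycle genes that p53 and p21 repress through the DREAM complex had 7 log2 ratios above 0 and 17 below 0. Their median was -0.08, against -0.01 for all genes tested. At least 1.2-fold, 0 of them were higher and 4 were lower, where 13.8% and 13.5% of all genes tested were. The lower share was thus near that of all genes, and the higher share was under it. Top2a, a topoisomerase of dividing cells and the most abundant of them by summed level, went from 81.5 to 83.6 RPKM.

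Markers of other cell types differed between the libraries, and their part in the values above was not tested. Of 9 leukocyte markers at RPKM 1 or more 7 were at least 1.2-fold higher and 0 lower in the knockout library, against 13.8% and 13.5% of all genes tested, with summed levels over all 10 markers of 65.2 and 86.7 RPKM. None of these 10 was at 0. Fcgr3 and Cd68 were the 2 past 1.5-fold, at ratios of 1.92 (1.60 to 2.30) and 1.64 (1.38 to 1.94). Lyz2, the most abundant, went from 17.8 to 24.97 RPKM, and 32.8% of its words occur in other genes too.

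The other marker lists moved in mixed directions. The 6 skeletal muscle markers summed to 133 and 182 RPKM: Tnni2 went from 24.4 to 96.8 RPKM and Tnnt3 from 3.53 to 7.36 RPKM, while Ckm, the most abundant, was lower, at 102 and 75.1 RPKM. The myogenic factors Myod1 and Myog, picked after their values were seen, had 18 and 41 wild-type reads and 2 and 18 knockout reads. Of the 4 epithelial markers at RPKM 1 or more, 3 were at least 1.2-fold higher and 0 lower, against 13.8% and 13.5% of all genes tested. These 3 are keratins, and 11.4% to 32.3% of their words occur in other genes too. Among them Krt14, with 29.1% of such words, was past 1.5-fold at a ratio of 2.31 (1.63 to 3.30). The sum over all 8 epithelial markers, 93.0 and 108 RPKM, was mostly Dsp, which heart muscle also expresses. Among the epithelial markers picked after their values were seen, Krt5 had 0 wild-type and 2 knockout reads and Cdh1 had 2 reads in each library. The 7 erythroid markers summed to 35.4 and 30.2 RPKM, carried by Alas2 at 20.2 and 13.96 RPKM, but 5 of the 7 had a ratio above 1. The 6 listed hepatocyte markers summed to 7.01 and 4.09 RPKM. Alb had 88 wild-type and 0 knockout reads, Afp had 145 and 4, and Apoa2, the most abundant, went from 1.90 to 2.09 RPKM.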

How the data were processed

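RNA of whole hearts at embryonic day 13.5 was sequenced in 1 wild-type and 1 Srsf10 knockout library, grouped by the genotype in the labels. The submitters' processing notes name Bowtie 0.12.2 and mm9. Neither the annotation release nor the read filters nor any use of strand is stated in the sources used here. The authors deposited counts of uniquely mapped reads per Ensembl gene, per the file headers, and RPKM values made from them. The deposited coverage score was read as the percent of the listed length covered. Values above the full length occur in it, so that reading does not hold for every gene. The lowest listed count was 1, and unlisted genes were counted as 0 reads.

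Symbols were given to 17196 of the 17646 genes by Ensembl identifier. Read ratios used each header's total. Genes reaching 1 RPKM in either library were compared by size, with a 1.5-fold rule and no count test, as a single library per genotype gives no estimate of spread. A gene with 0 reads in one library was set against a floor of 3 reads. Intervals cover counting error only, as PCR copies could not be told from separate molecules. Ratio intervals were tried on simulated Poisson counts, which hold counting error only. That trial does not bear on PCR copies or on the spread between embryos. GENCODE M21 (GRCm38) gave shared words and exon overlaps. The members and lists were chosen with earlier results of these data known. All 10 members are named, and from each other list the genes past 1.5-fold and the most abundant one, with Trp53, Mdm4 and Srsf10; any family or Eda2r signalling gene could be named, and later picks are said to be so. Alternatives were pseudocounts, filters, fold rules and 4 scalings, among them the TMM factor of edgeR 4.0.16. Python 3.11.15, scipy 1.17.1 and R 4.3.3 were used.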

Additional observations from a re-analysis of the deposited data

How the results depend on the processing

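The median log2 ratio of the 10 genes kept its sign under the pseudocounts, filters and scalings tried, between 0.07 (RPKM of at least 5) and 0.15 (scaling to reads outside the mitochondrial genes). The scalings moved log2 ratios by at most 0.02, and the direction of Phlda3 turned under 3 of them. Requiring an RPKM of at least 5 left 8 of the 10 genes and 0 called higher, because Eda2r and Zmat3 drop out. With a 1.2-fold rule, 3 of the 10 genes were higher and 2 lower, and of the 39 further targets 8 were higher and 7 lower. With a 2-fold rule 0 further targets were lower, and with no filter 1 of 44 was higher, the low gene Gdf15. The call of Eda2r rests on 193 and 423 reads. No paired analysis was possible because each group has 1 library. The intervals cover counting error only, and the spread between embryos is not measured here.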
